A study of Mus musculus with 30 samples.

Results

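Pcyt1a, Enpp6, Pank3 and Dgka encode enzymes that handle phospholipid head groups, coenzyme A and diacylglycerol, and every probe of these 4 genes was followed through the cerebral cortex and hippocampus of mice that lack cyclooxygenase (COX)-1 or COX-2. All probes annotated to the 4 symbols were taken, 8 of the 9663 probes that carry a single gene symbol. The genes themselves were chosen by measured values, namely the hippocampal difference of COX-2-/- from COX-2+/+ mice for Pcyt1a, Enpp6 and Pank3, and that of COX-1-/- from COX-1+/+ mice for Dgka. Those differences are therefore given as a description, without a test.

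RNA of mice aged 12 weeks was hybridised to custom nylon cDNA arrays, and 3 arrays in each of 10 groups were available. In each region COX-1-/- mice had COX-1+/+ controls, and both COX-2-/- and COX-2+/- mice had controls of the COX-2+/+ genotype. The null alleles are carried in all cells of the animal, both lines have a mixed genetic background, and each line was kept with wild-type mice of its own. Null and wild-type mice were bred from separate parental pairs, and the breeding of the COX-2+/- group is not given in the sources used here. Both 3 animals a group and triplicate hybridisation are described for the study, so the spread among arrays may be partly technical. The values are the authors' Z scores, which measure the natural log intensity of a probe in SDs of its array from the array mean. Z differences cannot be read as fold changes, and in whole tissue fewer cells of a type and less RNA per cell cannot be told apart.

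Phosphatidylcholine, the most abundant membrane phospholipid of most cells, is built from choline by way of phosphocholine and CDP-choline, and it holds much of the arachidonic acid from which cyclooxygenases make prostanoids. Pcyt1a encodes the alpha form of the enzyme that joins CTP to phosphocholine, the rate-limiting step of that route. Enpp6 is a choline-specific phosphodiesterase that releases phosphocholine from glycerophosphocholine, a breakdown product of phosphatidylcholine, and in brain it is known from newly forming oligodendrocytes. Pank3, a pantothenate kinase, catalyses the first step of coenzyme A synthesis, and coenzyme A activates the fatty acids that enter phospholipids. Dgka, diacylglycerol kinase alpha, converts the second messenger diacylglycerol to phosphatidic acid.

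The sequences upstream of the 4 genes are shown as a description. That the probes of Pcyt1a, Enpp6 and Pank3 were all lower in COX-2-/- hippocampus follows from their choice, and a link of these sequences to the values was not tested. Each run holds the 250 bases before the most upstream start site in the RefSeq promoter table (GRCm38.p6), 5′ to 3′ on the strand of the gene, and capitals mark matches to the motifs named after them. The windows are chr16:32430671-32430920 on the plus strand for Pcyt1a, chr8:46986637-46986886 on the plus strand for Enpp6, chr11:35769245-35769494 on the plus strand for Pank3 and chr10:128745085-128745334 on the minus strand for Dgka.
Pcyt1a: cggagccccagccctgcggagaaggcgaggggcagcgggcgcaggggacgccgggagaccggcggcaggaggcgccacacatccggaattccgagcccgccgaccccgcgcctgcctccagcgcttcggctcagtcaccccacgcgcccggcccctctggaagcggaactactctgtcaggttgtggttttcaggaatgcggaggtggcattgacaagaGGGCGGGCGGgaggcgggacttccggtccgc
Enpp6: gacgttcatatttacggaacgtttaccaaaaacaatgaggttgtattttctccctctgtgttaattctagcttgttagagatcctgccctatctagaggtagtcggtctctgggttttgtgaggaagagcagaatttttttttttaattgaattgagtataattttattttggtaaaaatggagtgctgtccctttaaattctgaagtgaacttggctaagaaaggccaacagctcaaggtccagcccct
Pank3: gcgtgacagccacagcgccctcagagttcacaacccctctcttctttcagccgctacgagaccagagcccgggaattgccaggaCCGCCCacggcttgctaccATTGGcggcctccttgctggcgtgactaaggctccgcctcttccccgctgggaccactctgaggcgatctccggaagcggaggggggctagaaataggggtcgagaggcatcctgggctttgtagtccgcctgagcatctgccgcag
Dgka: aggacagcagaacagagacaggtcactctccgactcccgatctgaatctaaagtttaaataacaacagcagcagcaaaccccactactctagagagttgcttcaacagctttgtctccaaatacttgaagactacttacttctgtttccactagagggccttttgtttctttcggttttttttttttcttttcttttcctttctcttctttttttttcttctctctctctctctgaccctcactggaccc
The window of Pcyt1a had a G and C content of 71.6%, that of Pank3 63.6%, that of Dgka 41.2% and that of Enpp6 38.4%. Both strands were searched for 5 motifs, the GC box, the CCAAT box, the TATA box, the E box and the cAMP response element. Pcyt1a had 2 overlapping GC boxes that began at -31 and -27 from the start site, and Pank3 had a GC box at -166 and a CCAAT box at -147, both on the opposite strand. None of the 5 motifs was found in the windows of Enpp6 and Dgka. Among 32851 windows of the same length in the table, 32.7% held the letters GGGCGG of the GC box and 33.8% held the CCAAT box. The letters TATAAA of the TATA box were in 12.4%. The E box, searched as CACGTG, was in 6.02%, and the cAMP response element, searched as TGACGTCA, was in 1.55%. The window of Enpp6 lies inside the gene's annotated span, chr8:46939197-47096762.

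Of the 8 probes, Pcyt1a and Pank3 had 3 each and Enpp6 and Dgka 1 each, and they are named here by their row in the table. Only 3 had a mean Z above 0 over the 24 arrays outside COX-1 cortex, Pcyt1a row 2646 at 1.09, Pank3 row 3749 at 0.463 and Enpp6 row 2744 at 0.299. The study treats probes below a mean Z of 0 as background. The other 5 lay below it, Dgka row 1768 at -0.0312 just under that limit. The table falls into equal parts that were scaled separately, and in the first of them the values of 5 of the 6 cortical arrays of the COX-1 line are identical. The COX-1 cortex values of the 5 member probes in that part were left out. The probes of Ptgs1 and Ptgs2, the deleted genes, were not found by symbol and are not analysed here.

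The rule of the study asks for a mean Z above 0 in the arrays compared and a P of the Z test under 0.05. It also asks for a z ratio of more than 1.5 in size. The study names the SD of all genes on an array as the divisor of the z ratio. Here the z ratio is the difference over the SD of all probes' differences, which was 0.105 in COX-2-/- against COX-2+/+ hippocampus. With the divisor the study names, the unit of the Z score, the z ratio would be the difference in Z itself. No member probe would then reach 1.5, so every call by the rule rests on the divisor used here. The limma fits used every array of the region except the COX-1 arrays for the first part of the cortical table, and their p-values were adjusted over all probes with a mean Z above 0. The first part of the table held 3907 of the 8040 probes tested in COX-2-/- against COX-2+/+ hippocampus and 287 of the 329 probes that met the rule there. All 4 leading probes lie in that part. Within a group, arrays correlated with r from 0.984 to 0.993 over the second part. Of the region markers, 2 genes for hippocampus and 2 for cortex were on the array, and all of their probes were below background.

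**Figure D1:**
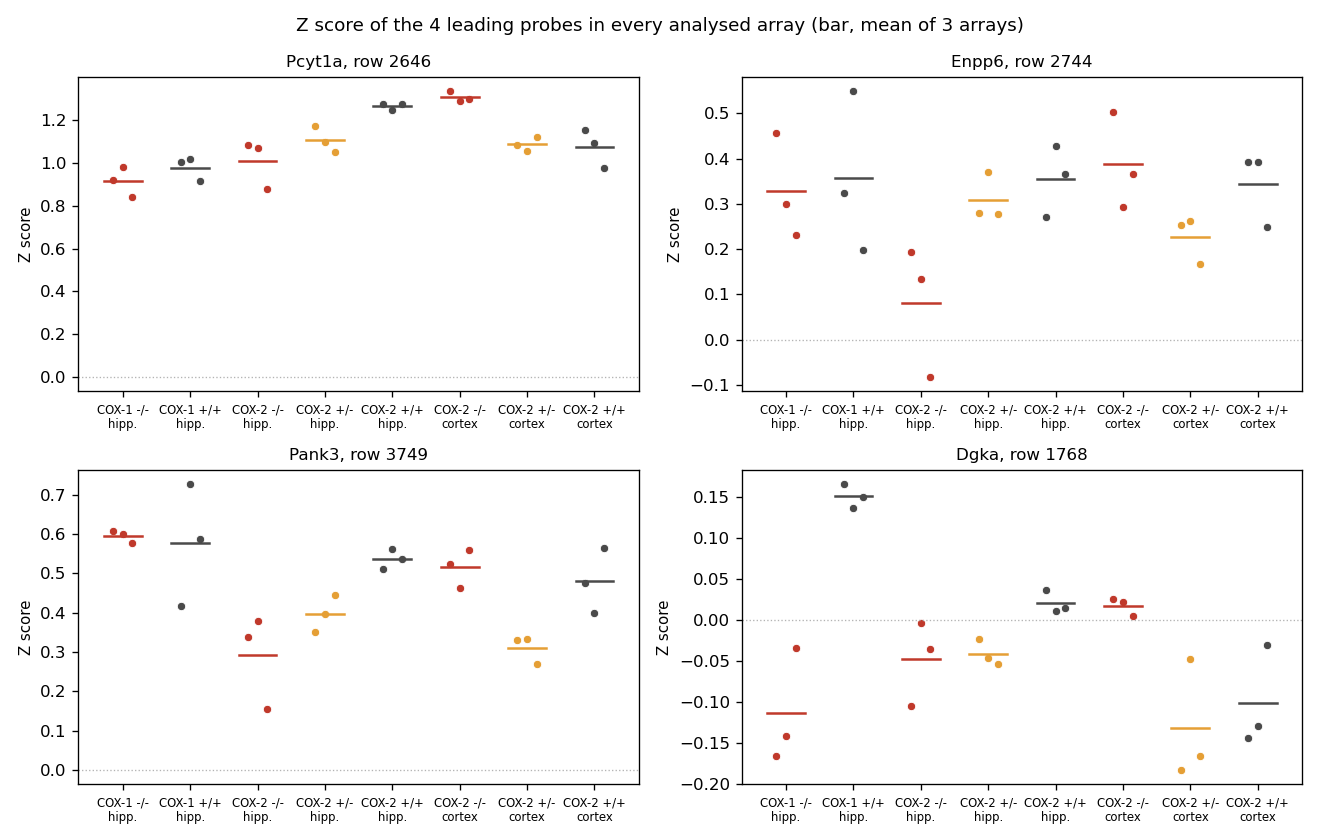
Z score (vertical axis, units of the SD of an array) of the leading probe of Pcyt1a, Enpp6, Pank3 and Dgka in each of 24 arrays, by group along the horizontal axis. Points are arrays and bars are means of 3 arrays. Pcyt1a is lower in COX-2-/- than COX-2+/+ hippocampus and higher in COX-2-/- than COX-2+/+ cortex, with no overlap in either region.

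Pcyt1a was lower in the hippocampus and higher in the cortex of COX-2-/- mice than in wild-type mice of the line. The arrays of COX-2-/- hippocampus were at 1.08, 1.07 and 0.880, against 1.27, 1.25 and 1.27 in COX-2+/+ hippocampus. Every COX-2-/- array lay below every wild-type array, and the difference of -0.256 in Z (z ratio -2.44) is one of those that chose the gene. In COX-2+/- hippocampus the arrays stood at 1.17, 1.10 and 1.05, below the wild-type arrays as well, with a difference of -0.159 and a z ratio of -1.33 that did not meet the rule. The COX-2-/- and COX-2+/- arrays overlapped, at a difference of -0.0962. These comparisons share the COX-2+/+ or COX-2-/- hippocampal arrays with the one that chose Pcyt1a, so they are given without a test.

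The cortex holds arrays that did not choose the gene. There the Pcyt1a probe stood at 1.33, 1.29 and 1.30 in COX-2-/- mice, at 1.08, 1.06 and 1.12 in COX-2+/- mice and at 1.15, 1.09 and 0.975 in COX-2+/+ mice. The COX-2-/- arrays lay above all arrays of both other groups, and the COX-2+/- and wild-type arrays overlapped. Against COX-2+/+ cortex the difference was 0.233 (SE 0.0589, 95% confidence interval 0.106 to 0.360, z ratio 2.30), which met the study's rule, and it did not pass limma after adjustment (adjusted p = 0.449). Against COX-2+/- cortex it was 0.220 (SE 0.0589, interval 0.0928 to 0.347, z ratio 1.91), which also met the rule and did not pass limma (adjusted p = 0.459). Between COX-2+/- and COX-2+/+ cortex the difference was 0.0134 (interval -0.114 to 0.140, limma adjusted p = 0.965). With 3 arrays against 3 an exact permutation test cannot give a two-sided p below 0.1. The mean Z of 8 choroid plexus and meningeal probes also did not overlap, at 0.173 to 0.210 in COX-2-/- and 0.158 to 0.172 in COX-2+/+ cortex, and neither did that of the 2 cortex marker probes, which are below background, at -0.646 to -0.587 in COX-2-/- and -0.798 to -0.668 in COX-2+/+ cortex. In COX-2+/- cortex the cortex marker probes were at -0.737 to -0.678, also without overlap with COX-2-/- cortex. The part of these markers in the Pcyt1a differences was not tested. Of all probes tested in COX-2-/- against COX-2+/+ cortex 17.6% did not overlap, and the shares for other comparisons are given below. Marker lists are printed for some comparisons only, most often where the groups did not overlap.

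In the COX-1 line the hippocampal levels of Pcyt1a were low in both genotypes. They were 0.920, 0.978 and 0.842 in COX-1-/- mice, against 1.002, 1.02 and 0.913 in COX-1+/+ mice, and the groups overlapped. The difference was -0.0637 (SE 0.0573, interval -0.186 to 0.0587, limma adjusted p = 0.626). Wild-type hippocampus of the COX-2 line lay above that of the COX-1 line by 0.288, with no overlap and a z ratio of 1.96 that met the rule. That comparison uses the COX-2+/+ arrays that chose Pcyt1a and has no test here. The neuron marker probes were at 0.430 to 0.478 in wild-type hippocampus of the COX-2 line and 0.335 to 0.355 in that of the COX-1 line. The oligodendrocyte marker probes were at -0.390 to -0.302 and -0.497 to -0.401. Neither list overlapped, as for 29.6% of all probes tested, and their part was not tested. When both wild-type groups served as the control, the difference of COX-2-/- hippocampus was -0.111 (z ratio -0.948) and no longer met the rule.

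In order of the group means, Pcyt1a was highest in COX-2-/- cortex at 1.31 ± 0.0227 and then in COX-2+/+ hippocampus at 1.27 ± 0.0148 (SD, n = 3 each), which did not overlap. The next group, COX-2+/- hippocampus at 1.11 ± 0.0595 (SD, n = 3), lay below both without overlap. From there to the lowest group, COX-1-/- hippocampus at 0.913 ± 0.0686 (SD, n = 3), each group overlapped the next. COX-2-/- hippocampus stood sixth in that order, at 1.01 ± 0.113 (SD, n = 3), between COX-2+/+ cortex at 1.07 ± 0.0916 and COX-1+/+ hippocampus at 0.977 ± 0.0559 (SD, n = 3 each).

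The hippocampus stood below the cortex in COX-2-/- mice by 0.298 and above it in COX-2+/+ mice by 0.191, with no overlap in either genotype and z ratios of -2.62 and 1.60. Both met the rule, the wild-type difference not without hippocampal replicate 1 (1.47) or 3 (1.45) or cortical replicate 3 (1.13), and both use arrays that chose the gene. In COX-2+/- mice, which did not, the hippocampus and cortex overlapped and differed by 0.0184 (interval -0.103 to 0.140, limma adjusted p = 0.875).

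Enpp6, the glycerophosphocholine phosphodiesterase, was lowest in COX-2-/- hippocampus. The arrays there were at 0.194, 0.134 and -0.0831, against 0.271, 0.428 and 0.367 in COX-2+/+ hippocampus, with no overlap. The difference of -0.274 (z ratio -2.61) is one of those that chose the gene, and 1 of the 3 COX-2-/- arrays was below 0. In COX-2+/- hippocampus the probe stood at 0.281, 0.369 and 0.277, above all COX-2-/- arrays, with a difference of COX-2-/- from COX-2+/- mice of -0.227 and a z ratio of -2.002 that met the rule. It was not met without COX-2-/- replicate 2 (-2.07) or replicate 3 (-1.19). The neuron marker probes were at 0.398 to 0.463 in COX-2-/- and 0.329 to 0.362 in COX-2+/- hippocampus and the astrocyte marker probes at 0.386 to 0.424 in COX-2-/- and 0.317 to 0.357 in COX-2+/- hippocampus, also without overlap, and their part was not tested. The COX-2+/- and COX-2+/+ hippocampal arrays overlapped and differed by -0.0465. Both comparisons with COX-2+/- hippocampus share arrays with the one that chose Enpp6. They are given as a description, and meeting the rule there is not read as a test.

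In the cortex, Enpp6 stood at 0.502, 0.294 and 0.366 in COX-2-/- mice, 0.253, 0.262 and 0.166 in COX-2+/- mice and 0.392, 0.392 and 0.249 in COX-2+/+ mice. The COX-2-/- arrays lay above all COX-2+/- arrays, and both of these groups overlapped the wild-type arrays. The difference of COX-2-/- from COX-2+/+ cortex was 0.0428 (interval -0.103 to 0.189, limma adjusted p = 0.847). That of COX-2-/- from COX-2+/- cortex was 0.160 (SE 0.0677, interval 0.0143 to 0.306, z ratio 1.39, limma adjusted p = 0.518), and that of COX-2+/- from COX-2+/+ cortex was -0.117 (interval -0.263 to 0.0285, limma adjusted p = 0.734). None of the 3 met the rule.

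Enpp6 varied more among the arrays of the COX-1 line than the other leading probes above background. In COX-1-/- hippocampus it was at 0.456, 0.300 and 0.231, against 0.323, 0.548 and 0.198 in COX-1+/+ hippocampus, and the groups overlapped over most of their range. The difference was -0.0274 (SE 0.0893, interval -0.218 to 0.164, limma adjusted p = 0.918). The hippocampus of COX-2-/- mice stood 0.306 below their cortex, with no overlap (z ratio -2.69), given without a test because the hippocampal arrays chose the gene. In COX-2+/- mice the hippocampus lay above the cortex with no overlap, at a difference of 0.0817 (interval -0.0923 to 0.256, limma adjusted p = 0.573).

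Enpp6 is known from oligodendrocytes, so other genes of that lineage were read beside it. Of 25 marker genes, 5 were on the array, by 6 probes, and only Car2 row 4999 and Gsn row 15078, neither of which is restricted to these cells, had a mean Z above 0. In COX-2-/- against COX-2+/+ hippocampus Car2 differed by -0.0298 and Gsn by -0.0653, with limma adjusted p of 0.839 and 0.610. Pdgfra, which marks precursors, and Bcas1, which marks newly forming cells, were below background on average, at -1.76 and -0.458. In the same comparison Pdgfra differed by -0.181 (z ratio -1.72) and Bcas1 by -0.00399, and neither was tested. In COX-2+/- against COX-2+/+ cortex Pdgfra differed by -0.477 (z ratio -4.45), Bcas1 by 0.0440, Car2 row 4999 by -0.0295 and Gsn by 0.00269. For hippocampus minus cortex of COX-2+/- mice the values were 0.543 (z ratio 3.68), -0.0318, 0.0439 and -0.0350. Pdgfra and Bcas1, below background, were not tested there either. The mean Z of the 6 probes was -0.454 to -0.379 in COX-2-/- hippocampus and -0.390 to -0.302 in COX-2+/+ hippocampus. The 2 hippocampus marker probes, below background, were at -0.273 to -0.233 in COX-2-/- and -0.327 to -0.277 in COX-2+/+ hippocampus, without overlap. The part of oligodendrocyte number and of these markers in the Enpp6 values was not tested.

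Pank3, the pantothenate kinase, was low in COX-2-/- hippocampus and in the cortex of COX-2+/- mice. The row 3749 probe of COX-2-/- hippocampus stood at 0.339, 0.379 and 0.156, against 0.512, 0.561 and 0.537 in COX-2+/+ hippocampus, with no overlap. The difference was -0.245, at a z ratio of -2.34, and is one of those that chose the gene. In COX-2+/- hippocampus the arrays were at 0.351, 0.397 and 0.445, below every wild-type array and overlapping the COX-2-/- arrays. The differences were -0.139 from COX-2+/+ mice and, for COX-2-/- from COX-2+/- mice, -0.106, and neither met the rule. As for Pcyt1a and Enpp6, the COX-2+/- hippocampal mean lay between those of the other genotypes. The difference between those genotypes chose these genes, so nothing is read from that position.

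In the cortex the order was another. Pank3 stood at 0.525, 0.462 and 0.559 in COX-2-/- mice, 0.331, 0.333 and 0.269 in COX-2+/- mice and 0.475, 0.398 and 0.566 in COX-2+/+ mice, so that the COX-2+/- arrays lay below all arrays of both other groups. The difference of COX-2+/- from COX-2+/+ cortex was -0.168 (SE 0.0596, interval -0.297 to -0.0396, z ratio -1.57), which met the rule and did not pass limma (adjusted p = 0.604). The z ratio was -1.24 without COX-2+/- replicate 3 and -1.05 without COX-2+/+ replicate 3, and the rule was then not met. The mean Z of 5 endothelial and pericyte marker probes was 0.221 to 0.277 in COX-2+/- and 0.286 to 0.334 in COX-2+/+ cortex, also without overlap, and its part in the Pank3 difference was not tested. COX-2-/- cortex lay above COX-2+/- cortex by 0.204 (SE 0.0596, interval 0.0756 to 0.333, z ratio 1.77), which met the rule and did not pass limma either (adjusted p = 0.459). COX-2-/- and COX-2+/+ cortex overlapped and differed by 0.0360 (interval -0.0925 to 0.165, limma adjusted p = 0.852).

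The COX-1 line had the highest Pank3 levels in hippocampus, at 0.608, 0.600 and 0.578 in COX-1-/- mice, against 0.416, 0.726 and 0.588 in COX-1+/+ mice. The groups overlapped, and the difference was 0.0186 (SE 0.0696, interval -0.130 to 0.168, limma adjusted p = 0.928). Each of the 5 groups from COX-1-/- hippocampus, at 0.595 ± 0.0153, down to COX-2+/+ cortex, at 0.479 ± 0.0838 (SD, n = 3 each), overlapped the next in order of their means. COX-2-/- hippocampus was the lowest of the 8 groups, at 0.291 ± 0.119 (SD, n = 3), and overlapped the COX-2+/- cortex at 0.311 ± 0.0364 (SD, n = 3). In COX-2+/- mice the hippocampus lay above the cortex with no overlap, by 0.0863 (interval -0.0526 to 0.225, limma adjusted p = 0.437), and in COX-2-/- mice it lay below it by 0.224 with no overlap (z ratio -1.97, given without a test). That z ratio was -1.33 without replicate 3 of COX-2-/- hippocampus and -1.44 after subtraction of a running median of the neighbouring rows, and the rule was then not met.

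**Figure D2:**
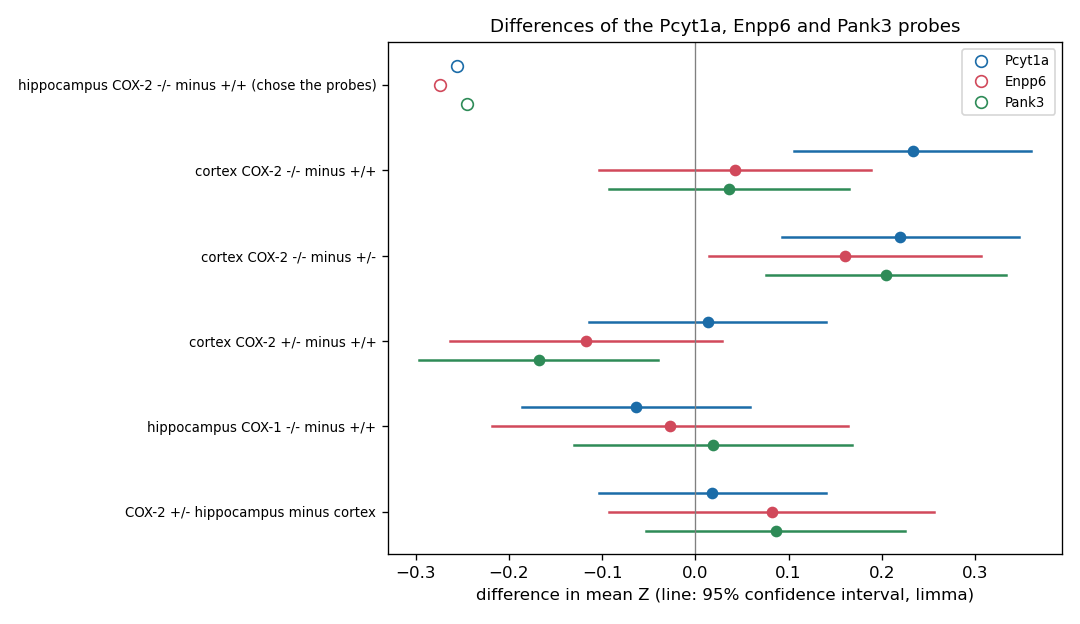
Difference in mean Z (horizontal axis) of the leading probes of Pcyt1a, Enpp6 and Pank3 in 6 comparisons (vertical axis). Open points are the comparison that chose the probes and have no interval, and filled points carry the 95% confidence interval of limma. The Pcyt1a interval lies above 0 in COX-2-/- cortex against both other genotypes. For COX-2-/- cortex the Enpp6 and Pank3 intervals include 0 against COX-2+/+ cortex and lie above 0 against COX-2+/- cortex. The Pank3 interval lies below 0 in COX-2+/- against COX-2+/+ cortex. The intervals are not adjusted for the number of probes, and none of these differences passed limma after adjustment.

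Dgka, the diacylglycerol kinase, differed in the COX-1 line. It was at -0.166, -0.142 and -0.0346 in COX-1-/- hippocampus, against 0.165, 0.137 and 0.150 in COX-1+/+ hippocampus, with no overlap. The difference of -0.265 (z ratio -2.32) chose the gene, and the mean Z over the 6 arrays was 0.0182, just above the limit of 0 that the rule sets. Without any 1 of the COX-1+/+ arrays the mean Z over the rest was below 0 and the rule was not met, at z ratios of -2.22 to -2.13. COX-1+/+ hippocampus, at 0.151 ± 0.0141 (SD, n = 3), was the highest of the 8 groups and overlapped none of the others. The remaining 7 groups had means from -0.133 to 0.0203. The mean Z of 4 neuron marker probes was 0.367 to 0.390 in COX-1-/- and 0.335 to 0.355 in COX-1+/+ hippocampus, without overlap. The 2 hippocampus marker probes, below background, did not overlap either, at -0.428 to -0.372 in COX-1-/- and -0.363 to -0.225 in COX-1+/+ hippocampus. The part of both in the Dgka difference was not tested.

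In the COX-2 line Dgka was below the background limit in both regions and was not tested. In hippocampus it stood at -0.105, -0.00359 and -0.0360 in COX-2-/- mice, -0.0240, -0.0466 and -0.0539 in COX-2+/- mice and 0.0369, 0.0102 and 0.0139 in COX-2+/+ mice. Both groups with a null allele lay below the wild-type arrays, by 0.0685 in COX-2-/- mice and 0.0618 in COX-2+/- mice. In cortex it was at 0.0255, 0.0213 and 0.00455 in COX-2-/- mice, -0.183, -0.0475 and -0.167 in COX-2+/- mice and -0.144, -0.130 and -0.0309 in COX-2+/+ mice, and the COX-2-/- arrays lay above those of both other groups. The differences of COX-2-/- mice were 0.119 from COX-2+/+ and 0.150 from COX-2+/- cortex, at z ratios of 1.17 and 1.30.

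Read over all 8 probes, each comparison called few, and a share is read against that of all probes tested. All 3 member probes above background in COX-2-/- against COX-2+/+ hippocampus met the rule and did not overlap, which the choice of the genes fixes. Of all 8040 probes tested there, 4.09% met the rule and 17.1% did not overlap. In COX-1-/- against COX-1+/+ hippocampus 1 of 4, Dgka, met the rule and did not overlap, which the choice of that gene fixes, and only its COX-1+/+ arrays brought it above background. Of all 8058 probes 4.8% met the rule and 21.8% did not overlap. By limma 0.31% passed there, and none of the 3 probes not chosen on it had an unadjusted p under 0.05.

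In COX-2-/- against COX-2+/+ cortex 1 of 3 probes above background, Pcyt1a, met the rule and did not overlap, against 4.32% and 17.6% of 8003 probes. By limma 0 of the 3 passed, with 1 at an unadjusted p under 0.05, and 0% of all probes passed, with 757 at an unadjusted p under 0.05. In COX-2+/- against COX-2+/+ cortex 1 of 3, Pank3, met the rule and did not overlap, against 3.26% and 16.3% of 8011 probes, and limma passed 0 of 3 and 0% of all, with 1 member probe and 585 probes in all at an unadjusted p under 0.05. In COX-2-/- against COX-2+/- cortex 2 of 3 met the rule and 3 of 3 did not overlap, against 3.15% and 21.8% of 7988 probes. There limma passed 0 of 3 and 0% of all, with 3 member probes and 740 probes in all at an unadjusted p under 0.05. The 3 cortical comparisons share groups, so they are not independent of each other.

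In hippocampus, COX-2+/- against COX-2+/+ mice gave 0 of 3 by the rule and 2 of 3 without overlap, against 6.21% and 33.3% of 8041 probes. COX-2-/- against COX-2+/- mice gave 1 of 3 by the rule, Enpp6, and 1 of 3 without overlap, against 5.02% and 24.5% of 8048 probes. Limma passed 2.82% and 0.746% of all probes in these comparisons. Between the wild-type groups of the COX-2 and COX-1 lines, 1 of 4 met the rule and 2 of 4 did not overlap, against 3.38% and 29.6% of 8054 probes. Between hippocampus and cortex, 3 of 3 met the rule in COX-2-/- mice, against 4.66%, and 1 of 3 in COX-2+/+ mice, against 7.07%. The numbers without overlap were 3 of 3 and 1 of 3, against 18.6% and 29.6%. The hippocampal arrays in both of these comparisons, and some arrays in each of the 3 before them, chose member genes, so nothing is read from these shares. In COX-2+/- mice 0 of 3 met the rule, against 6.76%, and 2 of 3 did not overlap, against 41.2%, and by limma 0 of 3 passed, adjusted or unadjusted, against 12.6% of 8008 probes.

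The additional probes of Pcyt1a and Pank3 gave other differences than the leading ones. Pcyt1a row 8661 and row 13224 had mean Z of -0.247 and -0.522, and Pank3 row 2882 and row 8934 had mean Z of -0.568 and -1.47, all below background. Their z ratios in COX-2-/- against COX-2+/+ hippocampus were 0.691 and -0.540 for Pcyt1a and -0.616 and 0.00936 for Pank3, where the leading probes had -2.44 and -2.34. The z ratios in COX-2-/- against COX-2+/+ cortex were -0.593 and 0.515 for Pcyt1a, where the leading probe had 2.30. Over 24 arrays the leading Pcyt1a probe had r of 0.185 with row 8661 and -0.372 with row 13224, and the leading Pank3 probe had r of 0.270 with row 2882 and -0.239 with row 8934.

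**Figure D3:**
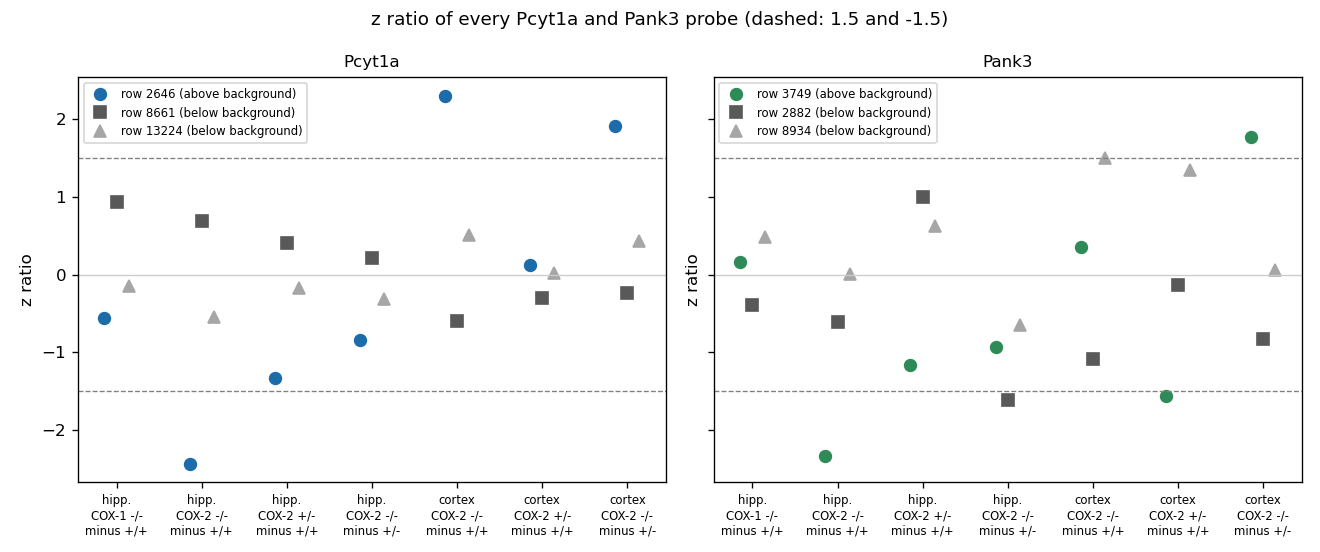
z ratio (vertical axis, the difference divided by the SD of the differences of all probes) of the 3 probes of Pcyt1a and the 3 of Pank3 in 7 genotype comparisons (horizontal axis). Coloured points are the probes above background, grey points those below it, and dashed lines mark 1.5 and -1.5. In COX-2-/- against COX-2+/+ hippocampus only the coloured points lie beyond the lines, at -2.44 and -2.34.

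Among the additional probes 2 had a z ratio beyond 1.5 in size, both below background and not tested. Pcyt1a row 8661 stood at -0.405 ± 0.0891 in the hippocampus and -0.0751 ± 0.0670 in the cortex of COX-1+/+ mice (SD, n = 3 each), with no overlap, as for 37.4% of all probes tested, a difference of -0.330 and a z ratio of -1.93. Pank3 row 2882 was at a z ratio of -1.62 in COX-2-/- against COX-2+/- hippocampus. Pank3 row 8934 was at 1.495 in COX-2-/- against COX-2+/+ cortex, just short of that size. In COX-1 cortex only the 3 probes in the later rows could be read. Pcyt1a row 8661 stood at -0.186 ± 0.0138 in COX-1-/- and -0.0751 ± 0.0670 in COX-1+/+ cortex (SD, n = 3 each), with no overlap, as for 18.7% of all probes tested, and a z ratio of -1.003. Pcyt1a row 13224 and Pank3 row 8934 differed there by -0.00405 and 0.00410.

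The rows around a probe moved with it in part. A running median over each row and the 100 rows on either side was taken on each array, and the difference of that median was set beside the difference of the probe. For Dgka in COX-1-/- against COX-1+/+ hippocampus the neighbouring rows differed by -0.171, against -0.265 for the probe, and after subtraction of the running median Dgka had a z ratio of -0.955 and did not meet the rule. The neighbours differed in COX-2-/- against COX-2+/+ hippocampus by -0.0771 at Pcyt1a, -0.155 at Enpp6 and -0.0992 at Pank3. After subtraction the differences were -0.178, -0.118 and -0.146, and Enpp6, at a z ratio of -1.39, no longer met the rule. For Pcyt1a in COX-2-/- against COX-2+/+ cortex the neighbours differed by 0.000526, and the difference after subtraction was 0.233. Over 24 arrays the probe and its neighbouring median had r of 0.373 for Pcyt1a, 0.528 for Pank3, 0.707 for Enpp6 and 0.742 for Dgka. The part of row position in these values was not tested further.

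**Figure D4:**
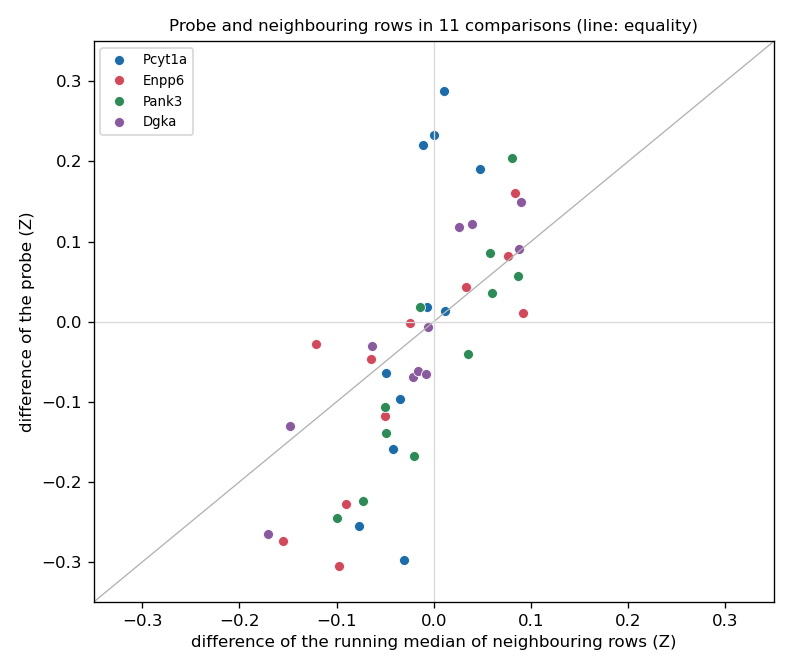
Difference in mean Z of the leading probes (vertical axis) against the difference of the running median of the rows around them (horizontal axis), for the 4 genes in 11 comparisons that share arrays. The line marks equality. The Pcyt1a points between 0.191 and 0.288 lie over neighbour differences from -0.0115 to 0.0473, and the 3 lowest of the Enpp6 and Dgka points lie over neighbour differences from -0.171 to -0.0975.

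The leading probes were related to each other to different degrees. Over the 24 arrays Enpp6 and Pank3 had r of 0.683, Pcyt1a and Enpp6 0.401 and Pcyt1a and Pank3 0.0325, and Dgka had r of 0.0808 to 0.352 with them. These arrays include those that chose the genes, and array, region and line are shared by all points. The single-symbol genes whose pattern was most like that of Pcyt1a were Ctnnd1, with r of 0.889, Grtp1 with 0.875 and Lama5 with 0.874. For Pank3 they were Fzd7, Iqgap1 and Oog1, with r of 0.884, 0.872 and 0.824, and for Enpp6 they were Spdl1, Pank4 and Eif4g3, with r of 0.786, 0.769 and 0.759. Of these 9 genes Pank4 and Oog1 were below background, with mean Z of -0.236 and -0.659. The Spdl1 probe lies 15 rows from that of Enpp6. Ctnnd1, Lama5, Pank4 and Oog1 lie 1051 to 1072 rows from the probe they resemble, Iqgap1 and Fzd7 530 and 571 rows, Grtp1 2105 rows and Eif4g3 7320 rows.

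Other genes of the same pathways were counted in 5 lists. In COX-2-/- against COX-2+/+ hippocampus limma passed none of their probes, with 1 higher and 2 lower at an unadjusted p under 0.05 and, by the rule, Pla2g15 higher and Gdpd1 lower. These 2 of 56 probes stand against 4.09% of all probes tested, and 0% of all passed limma, with 985 at an unadjusted p under 0.05. Gdpd1, a glycerophosphodiester phosphodiesterase of the remodelling list, stood at -0.0353 ± 0.0988 in COX-2-/- and 0.201 ± 0.0393 in COX-2+/+ hippocampus (SD, n = 3 each). Only its COX-2+/+ arrays brought it above background, so its call is given as a description. Pla2g15, a lysosomal phospholipase, stood at 0.190 ± 0.0421 in COX-2-/- and 0.0167 ± 0.142 in COX-2+/+ hippocampus (SD, n = 3 each), and its groups overlapped. The median difference was -0.0290 over the 11 probes tested of phosphatidylcholine and phosphatidylethanolamine synthesis, against 0.000791 over all probes tested. It was -0.0105 in the remodelling list and 0.0276 in that of diacylglycerol and phosphatidic acid metabolism. For phospholipase C and diacylglycerol effectors it was -0.0251, and for coenzyme A synthesis and use 0.00190. The lists were not tested as sets, and no common direction is read from these medians.

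In the other comparisons of a null group with its wild type, the lists gave 1 call each by the rule. That is 1 of 53 probes in COX-2-/- cortex, against 4.32% of all probes, 1 of 54 in COX-1-/- hippocampus, against 4.8%, and 1 of 28 in COX-1-/- cortex, against 2.71%, and a single call is not read as a result about the lists. Plcb3, a phospholipase C that releases diacylglycerol, was lower in COX-2-/- cortex, at 1.03 ± 0.0405, than in COX-2+/+ cortex, at 1.19 ± 0.0780 (SD, n = 3 each, limma adjusted p = 0.461). Agpat1, which acylates lysophosphatidic acid to phosphatidic acid, was higher in COX-1-/- hippocampus, at 2.33 ± 0.0638, than in COX-1+/+ hippocampus, at 2.12 ± 0.0705 (SD, n = 3 each, limma adjusted p = 0.174). Acot7, an acyl-CoA thioesterase, was higher in COX-1-/- cortex, at 0.564 ± 0.0495, than in COX-1+/+ cortex, at 0.388 ± 0.0437 (SD, n = 3 each, limma adjusted p = 0.123).

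Among the comparisons of genotypes within a line, pathway genes passed limma in those that hold COX-2+/- hippocampus, and they were Agpat1 and Dcakd in both. Agpat1 was at 1.75, 1.91 and 1.86 in COX-2+/- hippocampus, against 2.16, 2.23 and 2.23 in COX-2+/+ hippocampus, and at 2.48, 2.34 and 2.16 in COX-2-/- hippocampus. Dcakd, annotated as holding a dephospho-CoA kinase domain, was at 1.88, 1.87 and 1.85 in COX-2+/- hippocampus, against 2.18, 2.27 and 2.28 in COX-2+/+ hippocampus, and at 2.37, 2.27 and 2.20 in COX-2-/- hippocampus. The COX-2+/- arrays of both genes lay below all arrays of the other genotypes.

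Agpat1 fell by 0.368 in COX-2+/- against COX-2+/+ hippocampus (limma adjusted p = 0.0194) and Dcakd fell by 0.377 (limma adjusted p = 0.00532). COX-2-/- hippocampus stood above COX-2+/- hippocampus by 0.488 for Agpat1 and 0.414 for Dcakd (limma adjusted p = 0.00552 and 0.00208), 2 of 57 pathway probes tested, against 0.746% of all probes. In COX-2+/- cortex both genes were higher than in COX-2+/+ cortex by the rule, at 2.43 ± 0.0280 against 2.20 ± 0.110 for Agpat1 and 2.34 ± 0.0730 against 2.16 ± 0.134 for Dcakd (SD, n = 3 each), and neither passed limma (adjusted p = 0.600 and 0.672). In COX-2+/- mice the hippocampus stood below the cortex by 0.590 for Agpat1 and 0.478 for Dcakd (limma adjusted p = 6.53e-05 and 0.000143). The mean Z of the neuron marker probes was 0.329 to 0.362 in COX-2+/- and 0.430 to 0.478 in COX-2+/+ hippocampus, without overlap. That of the endothelial and pericyte probes was lower as well, at 0.291 to 0.329 in COX-2+/- and 0.339 to 0.396 in COX-2+/+ hippocampus, and that of 4 microglia probes was higher, at 0.108 to 0.141 in COX-2+/- and 0.0310 to 0.101 in COX-2+/+ hippocampus, both without overlap. The part of these markers in the Agpat1 and Dcakd changes was not tested.

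**Figure D5:**
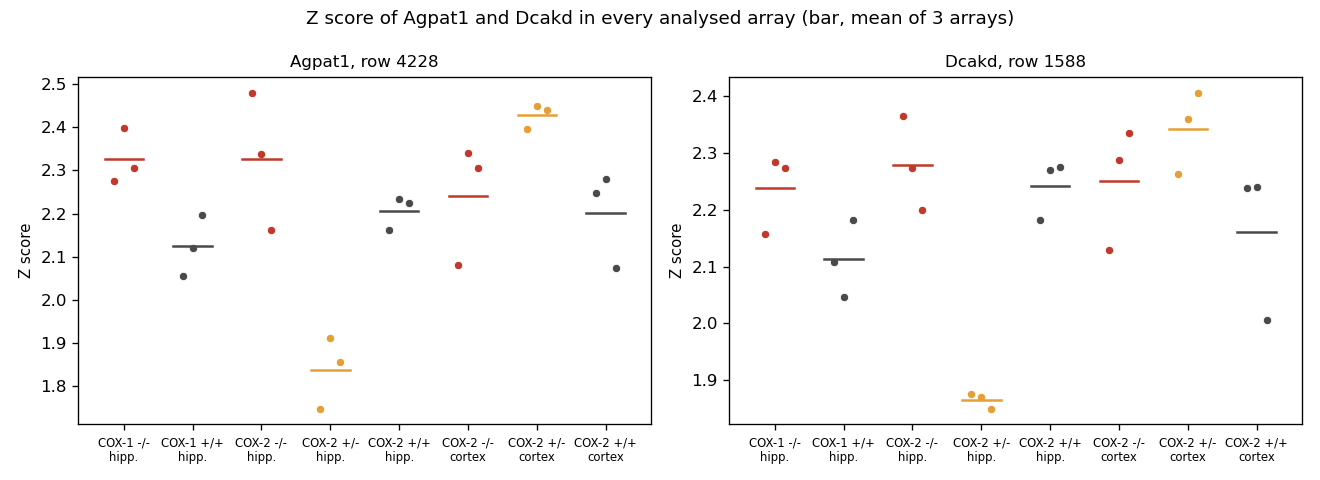
Z score (vertical axis) of Agpat1 and Dcakd in each of 24 arrays, by group along the horizontal axis. Points are arrays and bars are means of 3 arrays. The COX-2+/- hippocampal arrays of Agpat1 lie between 1.75 and 1.91 and those of Dcakd between 1.85 and 1.88, below all other arrays of the same probe.

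In the same comparison Cdipt, phosphatidylinositol synthase, met the rule as higher, at 0.342 ± 0.0997 in COX-2+/- and 0.0594 ± 0.0192 in COX-2+/+ hippocampus (SD, n = 3 each, limma adjusted p = 0.0515). So did row 13328 of Prkd3, a protein kinase D that diacylglycerol activates, at 1.28 ± 0.0172 in COX-2+/- and 1.09 ± 0.124 in COX-2+/+ hippocampus (SD, n = 3 each, limma adjusted p = 0.141). Another Prkd3 probe, row 9730, was below background and was not higher. It stood at -0.312, -0.247 and -0.319 in COX-2+/- and -0.296, -0.190 and -0.332 in COX-2+/+ hippocampus. Across the 5 lists the 56 probes tested gave 2 lower and none higher by limma there, and 2 higher and 2 lower by the rule. These 2 of 56 and 4 of 56 stand against 2.82% and 6.21% of all probes, close to the general shares, so nothing particular to the lists is read from them. The leading Pcyt1a and Pank3 probes were also lower in COX-2+/- than in COX-2+/+ hippocampus, as given above, but did not meet the rule.

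Between regions more pathway probes passed limma, as did more of all probes. In COX-1-/- mice 2 were higher and 5 lower in hippocampus than in cortex among 30 probes tested, against 25.2% of all probes, and in COX-1+/+ mice 2 were higher and 3 lower among 28, against 28.5%. Prkd2, a protein kinase D, was at 0.113 ± 0.0349 in the hippocampus and 0.453 ± 0.0877 in the cortex of COX-1-/- mice (SD, n = 3 each, limma adjusted p = 4.1e-05), and Acot7 was at 0.283 ± 0.0750 in their hippocampus and 0.564 ± 0.0495 in their cortex (SD, n = 3 each, limma adjusted p = 7.14e-05). In the COX-2 line 54 probes were tested in each genotype. In COX-2-/- mice 1 was lower, Acot7, against 0.51% of all probes, and in COX-2+/+ mice 1 was higher, Gdpd1, against 3.43%. Gdpd1 was at 0.201 ± 0.0393 in the hippocampus and -0.128 ± 0.0192 in the cortex of COX-2+/+ mice (SD, n = 3 each). Only the hippocampal arrays brought it above background, so its pass is given as a description. In COX-2+/- mice 5 were higher and 3 lower, against 12.6%. Prkd2 was among the higher ones, at 0.408 ± 0.0325 in their hippocampus and 0.231 ± 0.0278 in their cortex (SD, n = 3 each, limma adjusted p = 0.0188). That is the reverse of its direction in both COX-1 genotypes.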

How the data were processed

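Total RNA of cortex and hippocampus was labelled with 33P and hybridised to nylon cDNA membranes, which were scanned with a phosphoimager. The authors extracted intensities with ArrayPro and deposited Z scores, each the natural log intensity minus the array mean, divided by the array SD. Probes with a mean Z of 0 or less in the arrays compared were dropped as background by the study, and whether local background was subtracted from the intensities is not given in the sources used here. The number of arrays limits the precision. The table falls into equal parts, each with the mean and SD of a Z score on every array. Of the probes 9663 carried 1 gene symbol, 436 several and 6797 none, and only single-symbol probes were named.

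Genotypes were compared by the rule of the study, with the z ratio divided by the SD of all probes' differences. They were also compared by limma 3.58.1 in R 4.3.3, with every array of the region in the fit. Adjustment was by Benjamini-Hochberg over all probes above a mean Z of 0. The first part of the cortical table was fitted on the 9 COX-2 arrays, because 5 of the 6 COX-1 arrays hold identical values there. The fit was tested on simulated data. The members, the pathway and marker lists and the rule for naming genes were chosen with earlier results of these data known. That rule named every member probe, pathway genes that passed limma or met the study rule (up to 6 per comparison), oligodendrocyte markers and the 3 single-symbol genes most correlated with each member probe above background. Alternatives were other normalizations, filters, designs, control arrays and thresholds, a running median of neighbouring rows and the omission of each array in turn. Promoter windows were read with Python 3.11.15.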

Additional observations from a re-analysis of the deposited data

Results flagged for a closer look

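In 7 pairs of comparisons every array of a leading probe lay on one side of its control arrays in one setting and on the other side in the other, and none of the differences between these effects was tested. For Pcyt1a the difference of COX-2-/- from COX-2+/+ mice was 0.233 in cortex and -0.256 in hippocampus. The same arrays gave hippocampus minus cortex differences of -0.298 in COX-2-/- mice and 0.191 in COX-2+/+ mice. For Enpp6 the difference of COX-2-/- from COX-2+/- mice was 0.160 in cortex and -0.227 in hippocampus. Its hippocampus minus cortex difference was -0.306 in COX-2-/- mice and 0.0817 in COX-2+/- mice, and that of Pank3 was -0.224 in COX-2-/- mice and 0.0863 in COX-2+/- mice. For Dgka, below background in these arrays, the difference of COX-2-/- from COX-2+/+ mice was 0.119 in cortex and -0.0685 in hippocampus, and hippocampus minus cortex was -0.0653 in COX-2-/- mice and 0.122 in COX-2+/+ mice. The hippocampal arrays of COX-2-/- and COX-2+/+ mice chose Pcyt1a, Enpp6 and Pank3, so those values are not independent of the choice of genes.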

How the results depend on the processing

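Over 44 differences and their alternatives, 584 of 608 values kept their direction and side of the threshold or moved by less than the spread of replicates. A further 13 moved more than that, and 11 were counted as turned in direction. A turn was counted only for differences that were open to a test or met the rule. Other values that crossed 0 are among the 584 or the 13, so more than 11 turned. Enpp6 between the wild-type lines in hippocampus, for example, ran from -0.0803 to 0.0948 with no turn counted. Filters and changes to the limma fit alone cannot alter a difference, so part of that count was fixed in advance. It also leaves out loss of the study rule. The Dgka difference in COX-1-/- against COX-1+/+ hippocampus stayed within the spread in 14 of 16 alternatives, yet no longer met the rule in 5. No difference open to a test passed limma under any alternative. In the following changes, another filter on the mean Z or another z ratio limit acts through the level or z ratio of a probe alone. The cause of the other changes was not tested. By the study rule, a mean Z above 0.5 left 0 member probes in COX-1-/- against COX-1+/+ hippocampus, 1 in COX-2-/- against COX-2+/+ hippocampus, 0 in COX-2-/- against COX-2+/- hippocampus, 0 in COX-2+/- against COX-2+/+ cortex and 1 in COX-2-/- against COX-2+/- cortex. With no filter on the mean Z the comparison of COX-2-/- with COX-2+/- hippocampus had 2. A z ratio beyond 2 left 0 between the wild-type lines, 0 in COX-2+/- against COX-2+/+ cortex and 0 in COX-2-/- against COX-2+/- cortex. Using both wild-type groups as control gave 2 in COX-1-/- hippocampus, Dgka and Pcyt1a. Subtraction of the running median left 0 in COX-1-/- against COX-1+/+ and in COX-2-/- against COX-2+/- hippocampus, 0 in COX-2+/- against COX-2+/+ cortex, 1 in COX-2-/- against COX-2+/- cortex and 0 between the regions of COX-2+/+ mice. For regions this subtraction was chosen after seeing the data. It also turned Enpp6 in COX-1-/- against COX-1+/+ hippocampus to 0.0941 and Pank3 in COX-2-/- against COX-2+/+ cortex to -0.0234.

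Leaving out 1 array at a time gave 0 to 1 probes by the rule in COX-1-/- against COX-1+/+ hippocampus (0 without any 1 of the wild-type arrays), in COX-2+/- against COX-2+/+ hippocampus (1 without COX-2+/- replicate 1), in COX-2-/- against COX-2+/- hippocampus (0 without COX-2-/- replicate 2 or 3), in COX-2+/- against COX-2+/+ cortex (0 without replicate 3 of either group) and between the regions of COX-2+/+ mice (0 without hippocampal replicate 1 or 3 or cortical replicate 3). It moved Enpp6 between -0.0147 and 0.0896 in COX-2-/- against COX-2+/+ cortex and between -0.107 and 0.0686 in COX-1-/- against COX-1+/+ hippocampus. Pank3 moved between -0.00462 and 0.0791 and between -0.0616 and 0.0932 in the same comparisons. Pcyt1a moved between -0.0364 and 0.0537 in COX-2+/- against COX-2+/+ cortex and between -0.0136 and 0.0453 between the regions of COX-2+/- mice. Over the second part of the table, the deviations of same-numbered arrays from their group means had correlations of -0.0685 to 0.211 in 45 pairs. Whether same-numbered arrays come from the same animal is not known, and the main fits used no pairing. With the replicate number as a block, Pcyt1a in COX-2-/- against COX-2+/+ cortex stayed at 0.233 with a limma adjusted p of 0.405, and no difference open to a test passed. An SD over both parts of the table in COX-1 cortex was not run, because all member probes kept there are below background.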
